A study of Saccharomyces cerevisiae with 24 samples.

Results

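The comparison described here was that of the natural isolate UWOPS87_2421 (UWOP) with BY4742, a laboratory strain of the S288C background, in the absence of caffeine. Its members were 6 of the 24 RNA sequencing libraries of the series, 3 labelled UWOPS87_2421 (libraries 28, 36 and 44) and 3 labelled BY4742 (libraries 25, 33 and 41), chosen by strain label and absence of caffeine. UWOP is a strain of Saccharomyces cerevisiae collected from cactus, and BY4742 is the haploid of mating type alpha from which a widely used set of gene deletions was made, with HIS3, LEU2, LYS2 and URA3 disrupted. The labels give no genotype for UWOP. Both strains were grown in synthetic defined medium to an optical density of 0.4, with no drug, and the other libraries were those of strains Y55 and YPS606 and of all 4 strains in 20 mM caffeine. The study measured growth of gene deletions in these backgrounds. It reported that genes whose deletion phenotype changed between strains were not more likely than others to differ in expression across the 4 strains. Here the strains are compared in the RNA of the same genes.

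The libraries held 22732629, 19376428 and 18059686 estimated counts in UWOP, against 19737547, 23806897 and 16909110 in BY4742. No 2 libraries of a strain agreed within sampling noise, since the chi-square of their counts over genes was between 8.99 and 19.3 per degree of freedom. The labels do not say whether the libraries of a strain came from separate cultures, so the p-values measure only a spread between libraries. That spread was estimated in a fit of all 24 libraries in 8 groups, and is not that of these 6 libraries alone. Values are given as CPM, counts scaled to the library size after correction by TMM factors, and a gene is called where its adjusted p from edgeR was under 0.05.

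The strain labels were checked first with the disrupted genes. LYS2, an enzyme of lysine synthesis, had 182, 185 and 201 CPM in the UWOP libraries, against 0, 0.0918 and 0 CPM in the BY4742 libraries. LEU2, an enzyme of leucine synthesis, had 125, 109 and 125 CPM in the UWOP libraries, against 0.0527, 0.0459 and 0.128 CPM in the BY4742 libraries. Both were thus at or below the floor of 3 counts in each BY4742 library, which made LYS2 at least 1165-fold and LEU2 at least 736-fold higher in UWOP against 3 counts per library. URA3, an enzyme of pyrimidine synthesis, had 0.051, 119 and 111 CPM in the UWOP libraries, against 0, 0.0459 and 0 CPM in the BY4742 libraries. The UWOP library 28 therefore had about as little URA3 RNA as BY4742. Of the 5307 genes that averaged 10 CPM or more over the 6 libraries, it differed from both other UWOP libraries by at least 2-fold in 12, as did library 36. HIS3, of which BY4742 keeps a part, had 42.7, 39.7 and 37.3 CPM in the UWOP libraries, against 92.6, 87.9 and 108 CPM in the BY4742 libraries, and checks nothing.

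The 7 genes expressed in a cells summed to between 19.9 and 25.1 CPM in UWOP and between 22.5 and 22.7 CPM in BY4742, and none of them was called by edgeR or DESeq2 or had an unadjusted p under 0.05, while 1 was called lower in a fit of the 6 libraries alone and in a fit without the Y55 libraries. The 4 genes expressed in alpha cells summed to between 2291 and 2328 CPM in UWOP and between 3511 and 3968 CPM in BY4742, so RNA of both strains carried the alpha pattern. A further check went against the labels as separate strains. The libraries labelled UWOPS87_2421 differed from those labelled Y55 in 4 of 6400 genes, 0.0625% of those tested, or in 245 genes at an unadjusted p under 0.05, and DESeq2 also called 4. These were R0010W, R0020C, R0030W and R0040C, the genes of the 2-micron plasmid, which had at most 34 counts in any UWOP library. Against BY4742, R0020C and R0040C were called higher on the counts of library 36, and were not called without it (adjusted p = 0.868 and 0.858). All values below are those of the libraries labelled UWOPS87_2421, and none of them sets UWOP apart from Y55.

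Yeast strains of different origin differ at many regulatory sites, and the expression of whole pathways can shift where a regulator or a sensor differs. In S. cerevisiae, heme carries the oxygen signal to the transcription factor Hap1, which is known to carry a transposon insertion in the S288C background. S288C is also known for a form of AMN1 that lets daughter cells separate cleanly from their mothers.

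Of 6400 genes tested, 2343 were called, which was 36.6% of them. Of these, 1333 were higher in UWOP (20.8%) and 1010 lower (15.8%), and a change of at least 2-fold was found for 471 higher and 373 lower genes. The median log2 fold change over all genes was 0.03. The values of the 3 UWOP libraries did not overlap those of the 3 BY4742 libraries in 64.4% of the genes. In a fit of the 6 libraries alone, 3659 genes were called, so counts of called genes in the groups below were mostly larger in that fit. For transcripts near each other in sequence the counts are estimates, since reads shared by similar transcripts were divided between them, and 5089 of the genes tested had whole counts in each of the 6 libraries. No strand setting is given for the counting, so a gene and an antisense or overlapping partner may share reads.

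Ranking by fold change was limited to genes with whole counts of more than 3 in each of the 6 libraries, an average of 10 CPM or more and no overlap between the strains. Within these limits, the gene with the highest fold change was CYC1 (YJR048W), the major form of cytochrome c. It had 608, 599 and 527 CPM in the UWOP libraries, against 19.4, 20.5 and 22.2 CPM in the BY4742 libraries. The 3 UWOP libraries were close to each other and far above every BY4742 library (log2 fold change 4.81, SE 0.19, adjusted p = 2.09e-13). HMX1, the heme oxygenase that degrades heme, followed with 153, 127 and 128 CPM in the UWOP libraries, against 10.4, 8.73 and 10.2 CPM in the BY4742 libraries. Again no library fell between the strains (log2 fold change 3.80, SE 0.28, adjusted p = 1.12e-09). CYC7, the minor cytochrome c that is known to be made mostly without oxygen, had 36.1, 53.6 and 52.9 CPM in the UWOP libraries, against 4.85, 5.37 and 3.77 CPM in the BY4742 libraries, with no overlap either (log2 fold change 3.34, SE 0.68, adjusted p = 0.000539).

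The other genes at the top of the ranking had varied roles. CYB5, cytochrome b5, an electron donor in sterol and sphingolipid synthesis, had a log2 fold change of 3.14 (SE 0.13). ZNF1, a transcription factor of respiratory growth, had 3.31 (SE 0.69), and YAP6, a bZIP transcription factor, had 3.06 (SE 0.39). CIT2, the peroxisomal citrate synthase, was at 2.89 (SE 0.54). PUT4, the proline permease, was at 2.62 (SE 0.26), and the ferric reductase gene FRE4 at 2.87 (SE 0.41). MAM33, of the mitochondrial matrix, was at 2.45 (SE 0.17) with 256 ± 6.38 CPM in UWOP and 46.9 ± 1.94 CPM in BY4742 (SD, n = 3 each). DPI8, YJL107C and CIS1 were higher as well, with log2 fold changes of 3.31, 2.56 and 2.46.

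At the lower end of the ranking stood BNA1, a dioxygenase that makes a precursor of NAD from tryptophan. It had 2.09, 1.97 and 2.06 CPM in the UWOP libraries, against 39.6, 37.9 and 39.2 CPM in the BY4742 libraries. Its level in UWOP was thus low and tight, and no library overlapped (log2 fold change −4.25, SE 0.23, adjusted p = 1.38e-11). QDR2, a drug and cation transporter of the plasma membrane, had 13.5, 16.4 and 13.0 CPM in the UWOP libraries, against 244, 249 and 234 CPM in the BY4742 libraries, a difference of −4.08 (SE 0.20) on the log2 scale. SRD1, linked to processing of ribosomal RNA, had 2.57 ± 0.534 CPM in UWOP and 39.9 ± 3.22 CPM in BY4742 (SD, n = 3 each). HO, the endonuclease of mating type switching, which is inactive in most laboratory strains, had 14.8, 15.2 and 16.0 CPM in the UWOP libraries, against 84.7, 87.8 and 93.0 CPM in the BY4742 libraries. RNA of HO was lower in every UWOP library, with a log2 fold change of −2.53 (SE 0.16). The list was completed by GAS2, a glucanosyltransferase used in spore walls (−3.33), YDL124W, a keto amide reductase (−2.73), AYT1, an acetyltransferase (−2.66), and by genes of daughter separation, glycogen and protein folding described below.

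**Figure D1:**
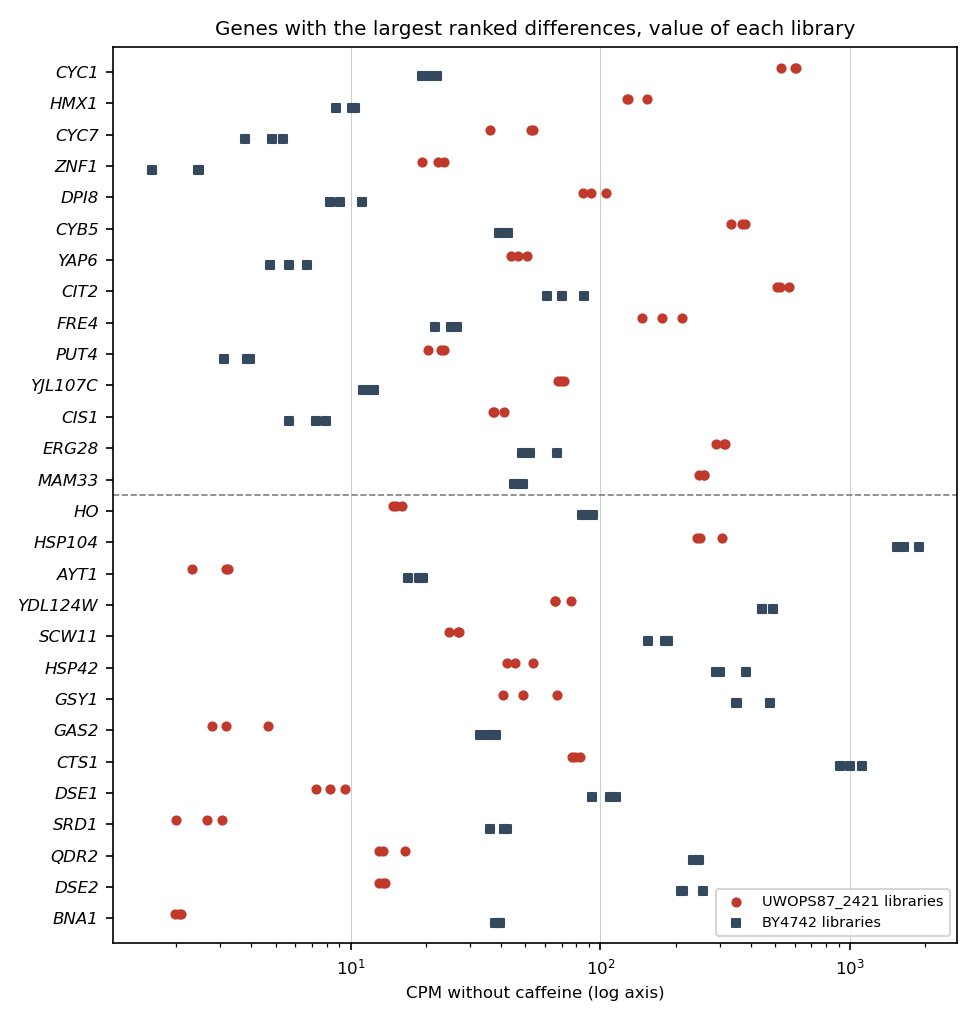
CPM of the 28 ranked genes in each library, on a log axis, with red circles for the 3 UWOPS87_2421 libraries and dark squares for the 3 BY4742 libraries, and a dashed line between genes that were higher and lower in UWOPS87_2421. The libraries of a strain lie close together and do not overlap those of the other strain, which the choice of genes required, and CYC1 and BNA1 are at the ends with log2 fold changes of 4.81 and −4.25.

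Genes that respond to heme and oxygen were shifted in both directions. Of 16 such genes tested, 7 were higher and 5 lower, against 20.8% and 15.8% of all genes, and all 16 had no overlap between the strains, against 64.4%. Beside CYC1 and CYC7, those higher were CYT1, cytochrome c1, with 327, 311 and 311 CPM in the UWOP libraries, against 83.9, 91.2 and 94.0 CPM in the BY4742 libraries (log2 fold change 1.82, SE 0.19, adjusted p = 1.18e-07). HMG1, the sterol reductase isoform known to be used with oxygen, had 438, 434 and 453 CPM in the UWOP libraries, against 128, 137 and 138 CPM in the BY4742 libraries, and HMG2, the isoform known to be used without it, had 65.0, 67.5 and 65.6 CPM in the UWOP libraries, against 114, 115 and 111 CPM in the BY4742 libraries. These paralogs moved in opposite directions, with log2 fold changes of 1.72 (SE 0.15) and −0.78 (SE 0.11). CYB2, a lactate dehydrogenase, was higher by 1.74 (SE 0.34).

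Genes of this group known to be made at low oxygen did not move together, since HMG2, COX5B and ANB1 were lower, CYC7 was higher, and AAC3 and HEM13 were not called (log2 fold changes of −0.28 and −0.22). COX5B, the low-oxygen subunit of cytochrome oxidase, had 15.6, 15.6 and 19.2 CPM in the UWOP libraries, against 58.4, 60.5 and 63.5 CPM in the BY4742 libraries (log2 fold change −1.86, SE 0.28, adjusted p = 2.34e-05), while its counterpart COX5A, with 98.0 ± 4.19 CPM in UWOP and 77.4 ± 4.48 CPM in BY4742 (SD, n = 3 each), was not called (adjusted p = 0.0768). ANB1, the low-oxygen form of a translation factor, had 16.4 ± 2.89 CPM in UWOP and 80.1 ± 4.34 CPM in BY4742 (SD, n = 3 each) and a log2 fold change of −2.29 (SE 0.25), but its counts were whole in only 2 of the 6 libraries. ROX1, the repressor of low-oxygen genes, was called at 0.87 (SE 0.31), and this call was lost when any 1 of the 6 libraries was left out, with adjusted p-values between 0.0526 and 0.106, and in a fit without the Y55 libraries (adjusted p = 0.0567). RNA of HAP1 itself was lower, with 145, 151 and 168 CPM in the UWOP libraries, against 388, 336 and 364 CPM in the BY4742 libraries, at −1.23 (SE 0.15) on the log2 scale.

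YHB1, a flavohemoglobin that detoxifies nitric oxide, had 1486, 1446 and 1547 CPM in the UWOP libraries, against 509.7, 608 and 579 CPM in the BY4742 libraries, and was called higher (log2 fold change 1.40, SE 0.15, adjusted p = 2.91e-07). In YPS606 it had 4.74 ± 0.624 CPM (SD, n = 3), far below both.

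A motif bound by Hap1 (CGG, any 3 bases, TA, any 1 base and CGG) was looked for on both strands of the 300 bases before the start codon of 6001 genes in the R64 genome, where a window may overlap a neighbouring gene. It was found in 8 of them, 0.133%, and in none of the 16 genes above. Of these 8 genes, 3 were higher in UWOP (HMX1, QCR6 and HPA2), none was lower and 5 were not called. Over all genes, 20.8% were higher and 15.8% lower. The sites of HMX1 (chrXII:553912-553941, minus strand) and QCR6 (chrVI:224974-225003, minus strand) are shown with the match in capitals, because these are the genes of heme breakdown and of respiratory complex III among the 8. The sequences are those of S288C from RefSeq R64, and promoters of UWOP were not analysed here.
HMX1: gctcggggtCGGCGTTATCGGaccgtggaa
QCR6: agcacgttcCGGGCATATCGGactggggcg

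Among 38 nuclear genes of the chain and of ATP synthase, 9 were higher and 9 lower, near the 20.8% and 15.8% of all genes. Of 9 tested genes of complex III, which passes electrons to cytochrome c, 5 were higher and none lower. RIP1, the iron-sulfur subunit, had 110.2, 115 and 114 CPM in the UWOP libraries, against 43.8, 56.9 and 54.0 CPM in the BY4742 libraries, all higher in UWOP (log2 fold change 1.13, SE 0.13, adjusted p = 7.61e-07), and QCR9 was at 0.91 (SE 0.15). Of 8 genes of complex IV, the oxidase, 3 were higher (COX12, COX8 and COX13, with log2 fold changes of 0.99, 0.67 and 0.58) and none lower. Of 14 genes of ATP synthase, none was higher and 7 were lower, the most ATP7 (−0.57 (SE 0.11)) and ATP3 (−0.47 (SE 0.09)). Of 4 genes of complex II, 2 were lower. SDH2, the iron-sulfur subunit of succinate dehydrogenase, had 29.8, 25.7 and 30.9 CPM in the UWOP libraries, against 61.9, 68.5 and 72.8 CPM in the BY4742 libraries and was lower (log2 fold change −1.23, SE 0.24, adjusted p = 0.000377). NDE1, the external NADH dehydrogenase, was higher, at 1.14 (SE 0.23). The 9 lower calls of the whole list became 5 without UWOP library 28 and 4 without BY4742 library 33, and the call of QCR6, at 0.63 (SE 0.19), was lost without BY4742 library 33 (adjusted p = 0.0557). In the tricarboxylic acid cycle, SDH2 was called among 13 genes, whereas DESeq2 called 4 lower, RLE size factors 3 lower, a fit without the Y55 libraries 1 higher and 4 lower, and a fit of the 6 libraries alone 3 higher and 8 lower. Of all 6400 genes, the fit of the 6 libraries alone called 1847 higher and 1812 lower.

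Ergosterol is the main sterol of yeast membranes, and its synthesis runs from acetyl-CoA through mevalonate, squalene and lanosterol with several steps that need oxygen and heme. Nearly the whole pathway was higher in UWOP. Of 25 genes tested, 22 were higher and 2 lower, against 20.8% and 15.8% of all genes. The median log2 fold change was 1.07, beside 0.03 over all genes. All 25 had no overlap between the strains, against 64.4% of all genes.

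ERG28, a scaffold of the demethylation enzymes, had 292, 313 and 315 CPM in the UWOP libraries, against 48.6, 67.3 and 52.1 CPM in the BY4742 libraries and was the member with the largest fold change (log2 fold change 2.45, SE 0.16, adjusted p = 2.27e-10). Its partners ERG26 and ERG25 had 1.68 (SE 0.10) and 1.58 (SE 0.11). Earlier in the pathway, ERG10, which joins acetyl-CoA units, had 1113, 1060.4 and 1044 CPM in the UWOP libraries, against 507, 473 and 484 CPM in the BY4742 libraries. No library overlapped, and the log2 fold change was 1.14 (SE 0.10). MVD1, the last enzyme of mevalonate use, was at 1.17 (SE 0.10), and ERG1, the squalene epoxidase, at 1.27 (SE 0.14). For its place in the pathway, ERG11, the demethylase that azole drugs inhibit, is also given. It had 1767, 1591 and 1706 CPM in the UWOP libraries, against 727, 868 and 744 CPM in the BY4742 libraries (log2 fold change 1.11, SE 0.17, adjusted p = 3.04e-05). At the end of the pathway, ERG3 had 1599, 1614 and 1504 CPM in the UWOP libraries, against 636, 650.2 and 567 CPM in the BY4742 libraries, and ERG5 was at 1.67 (SE 0.22). The smallest called difference among the enzymes was that of ERG24, 0.39 (SE 0.09).

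The 2 lower members were HMG2 and ECM22, a transcription factor of the pathway, with 59.4, 59.5 and 62.9 CPM in the UWOP libraries, against 95.4, 96.4 and 91.8 CPM in the BY4742 libraries (log2 fold change −0.64, SE 0.12, adjusted p = 0.000234). UPC2, the other such factor, had 42.8 ± 1.12 CPM in UWOP and 53.4 ± 3.39 CPM in BY4742 (SD, n = 3 each) and was not called (adjusted p = 0.134). Neither factor was thus higher at the RNA level where the enzymes were. ERG7 and ERG27 had counts that were not whole in any of the 6 libraries, and their fold changes, 1.09 and 0.79, rest on divided reads. Relative to YPS606, 11 of the 25 genes were higher and 1 was lower in UWOP, where 26.5% of all genes were called, and the largest of these differences was that of ERG3, with a log2 fold change of 1.03 (SE 0.08).

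The sterol element TCGTATA, to which Upc2 and Ecm22 bind, was in 277 of the 6001 promoter windows on either strand, 4.62%, and in 5 of the 25 genes of the list, all of which were higher (ERG2, ERG3, ERG8, ERG13 and ERG28). This motif was added after the values had been seen. Sites are given for the member with the largest fold change, ERG28 (chrV:238276-238305, minus strand, where the element reads on the other strand), and for 2 enzymes late in the pathway, ERG3 (chrXII:253564-253593, plus strand) and ERG2 (chrXIII:667341-667370, plus strand), with the element in capitals.
ERG28: taacctaatctTATACGAactgaattaaac
ERG3: aaaattcaggcTCGTATAagtggcacaata
ERG2: aaccacggcccTCGTATAagccgcaaggaa

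**Figure D2:**
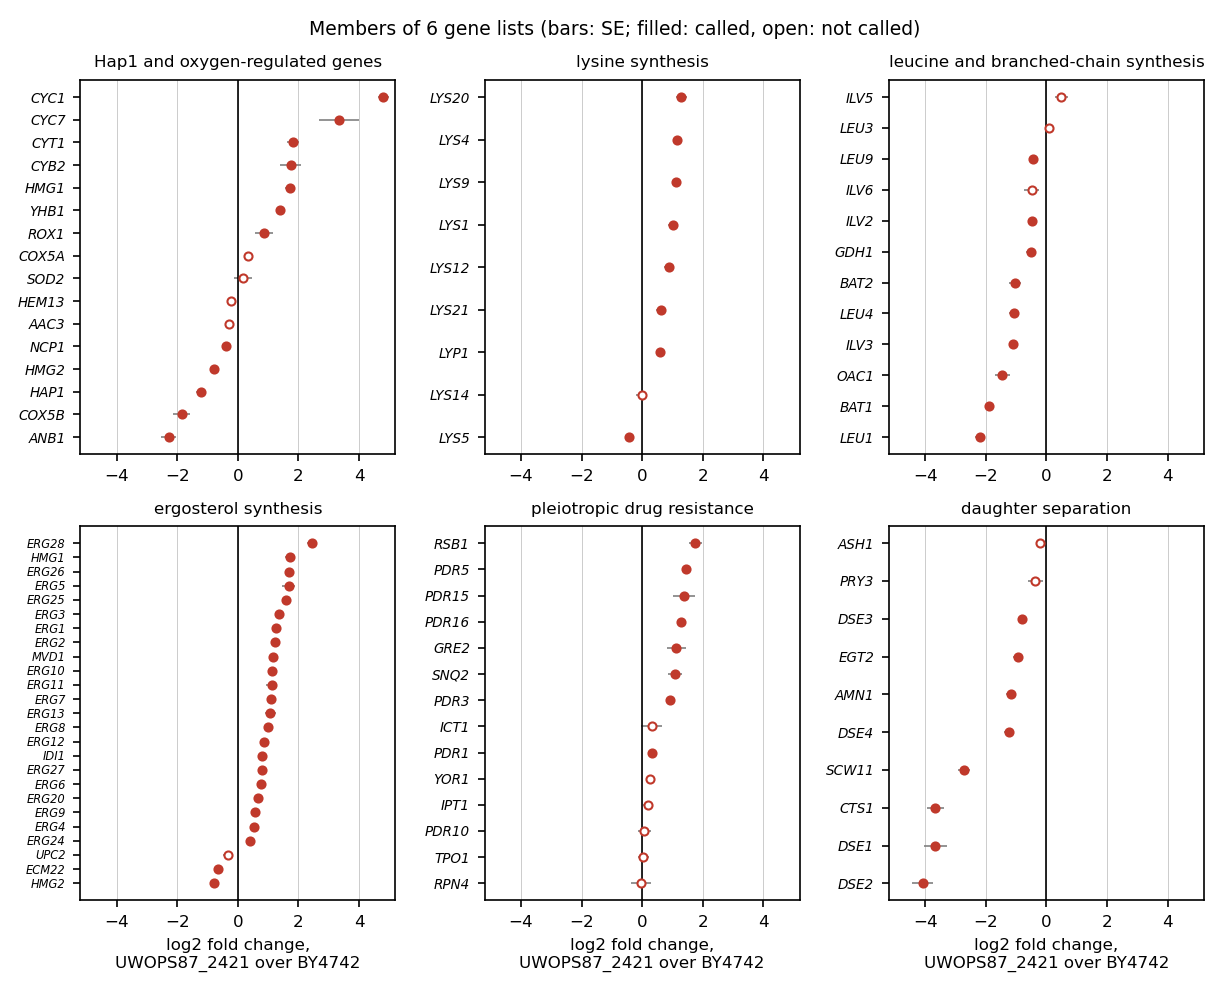
Log2 fold change of UWOPS87_2421 over BY4742 for tested members of 6 gene lists, with bars for the SE, filled points for called genes and open points for genes not called. Members of ergosterol synthesis lie right of 0 except HMG2, ECM22 and UPC2, members of daughter separation and of leucine synthesis lie mostly left of 0, and the heme and oxygen genes spread from ANB1 at −2.29 to CYC1 at 4.81.

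The pleiotropic drug resistance genes, which are targets of the factors Pdr1 and Pdr3 and include export pumps for many compounds, were higher or not called. Of 14 tested, 8 were higher and none lower, beside 20.8% and 15.8% of all genes, with a median log2 fold change of 0.61. RSB1, a sphingoid base transporter, had 99.2, 107 and 117 CPM in the UWOP libraries, against 35.0, 33.2 and 27.4 CPM in the BY4742 libraries, and every UWOP library was above every BY4742 library (log2 fold change 1.75, SE 0.22, adjusted p = 1.57e-06). PDR16, a phospholipid transfer protein, had 402, 369 and 373 CPM in the UWOP libraries, against 143, 173 and 151 CPM in the BY4742 libraries, and SNQ2, a pump, had 710.2, 719.5 and 737 CPM in the UWOP libraries, against 327, 337 and 357 CPM in the BY4742 libraries. Their log2 fold changes were 1.29 (SE 0.13) and 1.09 (SE 0.23). PDR5, the major pump, and PDR15, a pump of the same family, were at 1.44 (SE 0.14) and 1.38 (SE 0.37), and GRE2, a reductase, at 1.13 (SE 0.31) with counts that were not whole. RNA of PDR3 had 114, 121 and 124 CPM in the UWOP libraries, against 67.2, 62.1 and 61.5 CPM in the BY4742 libraries and was higher (log2 fold change 0.91, SE 0.11, adjusted p = 6.77e-07). The call of PDR1 was weak, at 0.31 (SE 0.12) with an adjusted p of 0.0471, and was lost without any 1 of the 6 libraries (adjusted p between 0.0556 and 0.265), with DESeq2 (adjusted p = 0.0940), with RLE size factors (adjusted p = 0.0951) and without the Y55 libraries (adjusted p = 0.0547). YOR1 and PDR10, also pumps, were not called, with log2 fold changes of 0.26 and 0.08.

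The element TCCGCGGA was in 12 promoter windows, 0.200%, and 1 of them was that of a list member, PDR3, which had 2 matches. Of the 12 genes, 4 were higher and 2 lower in UWOP, beside 20.8% and 15.8% of all genes, and 5 were not called. The remaining gene was not among the transcripts counted. One of the sites of PDR3 (chrII:217268-217297, plus strand) is given because the factor is known to act on its own gene.
PDR3: cgctcggacttTCCGCGGAataataaatga

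Genes that daughter cells express after division to dissolve the wall that joins them to the mother were lower in UWOP. Of 11 tested, 8 were lower and none higher, beside 15.8% and 20.8% of all genes, with a median log2 fold change of −1.16. DSE2, a glucanase, had 13.7, 13.5 and 13.0 CPM in the UWOP libraries, against 214, 258 and 211 CPM in the BY4742 libraries. It was lower in each UWOP library by more than any spread within a strain (log2 fold change −4.08, SE 0.34, adjusted p = 6e-09). CTS1, the chitinase that cuts the septum, had 79.3, 76.7 and 83.0 CPM in the UWOP libraries, against 908, 1119 and 1000.4 CPM in the BY4742 libraries (log2 fold change −3.66, SE 0.27, adjusted p = 1.2e-09). DSE1 and SCW11, a glucanase of the wall, were at −3.66 (SE 0.37) and −2.73 (SE 0.19). DSE4, EGT2 and DSE3 differed less, at −1.25 (SE 0.17), −0.95 (SE 0.17) and −0.79 (SE 0.13), and the counts of DSE3 were whole in 1 of 6 libraries.

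AMN1, which acts in mitotic exit, had 82.5, 87.3 and 90.4 CPM in the UWOP libraries, against 194, 198 and 192 CPM in the BY4742 libraries, and its RNA was lower (log2 fold change −1.16, SE 0.16, adjusted p = 4.53e-06). ASH1, whose RNA is carried into daughter cells, was not called, at −0.23 (SE 0.12). In bulk RNA, fewer cells of a type and less RNA per cell cannot be told apart, and here this applies to daughter cells. Relative to YPS606, 2 of the 11 genes were higher and 2 lower in UWOP, where 26.5% of all genes were called in either direction.

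Mannoproteins of the cell wall were called in both directions. Of 15 tested, 4 were higher and 6 lower, beside 20.8% and 15.8% of all genes, and 9 of the 15 had whole counts. CWP1, a mannoprotein of the birth scar, had 643, 622 and 597 CPM in the UWOP libraries, against 114, 128 and 109 CPM in the BY4742 libraries (log2 fold change 2.40, SE 0.24, adjusted p = 6.66e-08). TIR3 was higher as well, at 1.69 (SE 0.34), and the abundant CCW12 had 8435 ± 503 CPM in UWOP and 5421 ± 125 CPM in BY4742 (SD, n = 3 each). TIP1, a mannoprotein induced by cold, had 174, 156 and 138 CPM in the UWOP libraries, against 798, 987 and 794 CPM in the BY4742 libraries (log2 fold change −2.46, SE 0.25, adjusted p = 9.13e-08). TIR1, of the same family, had 21.6 ± 3.45 CPM in UWOP and 349.9 ± 33.1 CPM in BY4742 (SD, n = 3 each), a log2 fold change of −4.01 (SE 0.40), with whole counts in 5 of the 6 libraries. DAN1, known to be made without oxygen, was lower at −2.32 (SE 0.40). The family thus held members with large changes in both directions. Among 16 wall synthases and remodelling enzymes, GAS2, described above, was the only one with a log2 fold change beyond 1 in either direction.

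Synthesis of amino acids did not move as a block. Genes for leucine and the other branched-chain amino acids were lower, those for lysine were higher, and those for arginine and histidine were divided.

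Of 12 genes of leucine and branched-chain synthesis, 9 were lower and none higher, beside 15.8% and 20.8% of all genes. The median log2 fold change was −0.78. LEU1, the isomerase of the leucine branch, had 226, 188 and 231 CPM in the UWOP libraries, against 1012, 956 and 989.6 CPM in the BY4742 libraries. The UWOP libraries were all far below the BY4742 ones (log2 fold change −2.20, SE 0.18, adjusted p = 3.53e-09). BAT1, the mitochondrial transaminase, had 297, 253 and 262 CPM in the UWOP libraries, against 1028, 1019.7 and 979.7 CPM in the BY4742 libraries, at −1.90 (SE 0.11) on the log2 scale. OAC1, a mitochondrial carrier that exports the leucine precursor, was at −1.46 (SE 0.25), ILV3 at −1.10 (SE 0.14), LEU4 at −1.06 (SE 0.16) and BAT2 at −1.04 (SE 0.19). RNA of LEU3, the factor that senses the precursor, had 62.3 ± 3.77 CPM in UWOP and 58.8 ± 3.42 CPM in BY4742 (SD, n = 3 each) and was not called (adjusted p = 0.457). BY4742 lacks LEU2, the next enzyme after LEU1, so the state of the pathway differed between the strains by genotype, and its part in these values was not tested. Relative to YPS606, which had LEU2 RNA (227 ± 10.2 CPM, SD, n = 3), LEU1 in UWOP was not called (−0.39 on the log2 scale, adjusted p = 0.0964). In the same comparison 4 of the 12 genes were lower and 2 higher in UWOP, where 26.5% of all genes were called in either direction.

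The Leu3 motif (CCGG, any 2 bases and CCGG) was in 9 promoter windows, 0.150%. Of these genes, 6 were lower in UWOP, 1 was higher (LEU2) and 2 were not called, beside 15.8% lower and 20.8% higher over all genes. LEU1 (chrVII:478850-478879, minus strand) and BAT1 (chrVIII:517375-517404, plus strand) are shown because they had the largest fold changes of the list, and LEU2 (chrIII:91116-91145, plus strand) because it has the same motif. The capitals mark the motif.
LEU1: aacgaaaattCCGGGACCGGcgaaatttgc
BAT1: attgtgtttgCCGGTACCGGcctttaagct
LEU2: ggtgagagcgCCGGAACCGGcttttcatat

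Lysine synthesis runs through aminoadipate, and its genes are activated by Lys14 together with an intermediate. Of 10 genes tested, 8 were higher and 1 was lower, beside 20.8% and 15.8% of all genes, with a median log2 fold change of 0.95. LYS4, homoaconitase, had 347, 339 and 319 CPM in the UWOP libraries, against 149, 147 and 155 CPM in the BY4742 libraries (log2 fold change 1.16, SE 0.11, adjusted p = 2.52e-08). LYS9, a dehydrogenase late in the pathway, had 363, 329 and 308 CPM in the UWOP libraries, against 138, 168 and 154 CPM in the BY4742 libraries (log2 fold change 1.12, SE 0.15, adjusted p = 4.94e-06), and LYS1, the last enzyme, had 88.6, 91.5 and 89.5 CPM in the UWOP libraries, against 48.3, 41.9 and 44.0 CPM in the BY4742 libraries. All UWOP libraries were above all BY4742 libraries for each of these. LYS12 was at 0.89 (SE 0.15). The first enzymes, LYS20 and LYS21, had 1.29 (SE 0.18) and 0.61 (SE 0.17), on counts that were divided between these paralogs in every library. LYS14 had 46.7 ± 4.21 CPM in UWOP and 47.4 ± 1.86 CPM in BY4742 (SD, n = 3 each) and was not called, and LYS5, which activates the LYS2 enzyme, was lower, at −0.43 (SE 0.11). BY4742 lacks LYS2 of the same pathway, and the part of this in the values was not tested.

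The Lys14 motif TCCNNNGGA, added after the values had been seen, was in 3.15% of all windows and in 6 of the 10 genes. The sites of LYS9 (chrXIV:715532-715561, minus strand), LYS1 (chrIX:420913-420942, minus strand) and LYS12 (chrIX:187795-187824, minus strand) show, in capitals, 3 forms of it.
LYS9: attgagaattTCCAATGGAattatcagcaa
LYS1: atttttttttTCCAGCGGAatttggaattc
LYS12: ttcactttttTCCCGTGGAaaaatattctt

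Arginine genes went both ways, with 6 of 15 higher and 4 lower, beside 20.8% and 15.8% of all genes. ARG4, argininosuccinate lyase, had 59.5, 64.3 and 68.4 CPM in the UWOP libraries, against 201, 241 and 268 CPM in the BY4742 libraries (log2 fold change −1.89, SE 0.13, adjusted p = 3.85e-10), and ARG7 was at −1.25 (SE 0.07). ARG3, ornithine carbamoyltransferase, had 26.0, 27.5 and 26.8 CPM in the UWOP libraries, against 4.32, 5.56 and 8.17 CPM in the BY4742 libraries (log2 fold change 2.16, SE 0.26, adjusted p = 1.15e-06). CPA1, a subunit of carbamoyl phosphate synthetase, was higher at 1.33 (SE 0.11). ARG80, a regulator that represses arginine synthesis, was higher at 0.997 (SE 0.15). Relative to YPS606, 10 of the 15 were higher and 1 lower in UWOP, where 26.5% of all genes were called in either direction. In histidine synthesis, HIS4 had 154, 112 and 126 CPM in the UWOP libraries, against 411, 457 and 505 CPM in the BY4742 libraries (log2 fold change −1.81, SE 0.30, adjusted p = 5.76e-05), and HIS1 was lower as well, at −1.22 (SE 0.12). The 3 higher calls of that list, HIS2, HIS5 and HIS6, were of 0.47 or less on the log2 scale, and at most 1 of them remained when a library was left out, with none without UWOP library 36, BY4742 library 25 or BY4742 library 41.

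The activator Gcn4, known to drive these pathways together, binds TGACTC, which was in 7.77% of all windows, in 6 of 7 histidine genes, in 10 of 15 arginine genes, in 7 of 12 genes of the leucine list and in 4 of 10 lysine genes. These lists with the same element thus had different directions. The sites of HIS4 (chrIII:68515-68544, minus strand) and ARG4 (chrVIII:141564-141593, minus strand), which were both lower, are given with the element in capitals.
HIS4: acccatgcacagTGACTCacgtttttttat
ARG4: ttagtagatgaaTGACTCactttttggata
RNA of GCN4 had 899 ± 49.7 CPM in UWOP and 1069 ± 74.0 CPM in BY4742 (SD, n = 3 each), with a log2 fold change of −0.25 (SE 0.10) that was at the threshold (adjusted p = 0.0495) and was not called without UWOP library 36 or 44 or without BY4742 library 33 or 41 (adjusted p between 0.0647 and 0.125), with no filter on low counts (adjusted p = 0.0542) or with length offsets (adjusted p = 0.0506).

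Purine genes were lower where called, 7 of 16 beside 15.8% of all genes, with a median log2 fold change of −0.32. ADE1 had 103, 92.9 and 94.2 CPM in the UWOP libraries, against 243, 262 and 267 CPM in the BY4742 libraries (log2 fold change −1.41, SE 0.32, adjusted p = 0.00155), and ADE13, adenylosuccinate lyase, was at −0.85 (SE 0.22). The number of lower genes was 4 without UWOP library 36. In pyrimidine synthesis, URA1, dihydroorotate dehydrogenase, had 155, 146 and 140.2 CPM in the UWOP libraries, against 369, 439 and 394 CPM in the BY4742 libraries (log2 fold change −1.45, SE 0.16, adjusted p = 2.87e-07), URA4 was at −0.86 (SE 0.12) and URA8, a CTP synthase, at −1.10 (SE 0.22), while URA7, the other CTP synthase, was higher at 0.52 (SE 0.13). BY4742 and, by its counts, UWOP library 28 lacked RNA of URA3, and the part of this in the values was not tested.

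Of 25 sulfur genes 9 were higher and 2 lower, beside 20.8% and 15.8% of all genes, and 7 were higher without BY4742 library 41. MMP1, the transporter of S-methylmethionine, had 82.3, 84.5 and 95.8 CPM in the UWOP libraries, against 29.9, 29.0 and 31.5 CPM in the BY4742 libraries (log2 fold change 1.54, SE 0.20, adjusted p = 2.67e-06). MHT1, which uses that compound to make methionine, was at 1.48 (SE 0.19), and MET8, of siroheme synthesis, at 1.43 (SE 0.17). SAM2, which makes S-adenosylmethionine, was at 1.45 (SE 0.20) but has a near copy, and none of its counts was whole. CYS4, the first step from homocysteine to cysteine, went the other way, with 518, 487 and 511 CPM in the UWOP libraries, against 906, 1080.0 and 1019 CPM in the BY4742 libraries (log2 fold change −0.99, SE 0.10, adjusted p = 1.77e-07).

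Genes that good nitrogen sources keep silent were mostly lower where called, 11 of 27 against 2 higher, beside 15.8% and 20.8% of all genes. Of the 2 higher, 1 was left without BY4742 library 25 or 33. DAL4, the allantoin permease, had 0.867, 1.92 and 1.82 CPM in the UWOP libraries, against 5.01, 4.32 and 4.60 CPM in the BY4742 libraries (log2 fold change −1.60, SE 0.30, adjusted p = 0.000275). DAL1, the allantoinase, was at −1.38 (SE 0.35), DAL7, a malate synthase, at −1.16 (SE 0.17) on counts that were not whole, and DAL80, a repressor of the group, at −2.23 (SE 0.56) with less than 1 CPM in either strain. These genes were of low level in both strains. PUT4, described above, was a member with the opposite direction. GAP1, the general amino acid permease, had 12.3, 12.1 and 12.4 CPM in the UWOP libraries, against 24.4, 25.1 and 29.8 CPM in the BY4742 libraries and was lower (log2 fold change −1.11, SE 0.24, adjusted p = 0.00104). Among permeases, AGP3 had 27.8, 32.7 and 30.5 CPM in the UWOP libraries, against 8.12, 8.27 and 8.43 CPM in the BY4742 libraries (log2 fold change 1.87, SE 0.18, adjusted p = 5.34e-08).

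Genes that build ribosomes were higher, whereas those of the ribosome itself were mostly not called. Of 25 genes of ribosome biogenesis, 19 were higher and none lower, beside 20.8% and 15.8% of all genes. The median log2 fold change was 0.61. RRP12, an export factor of ribosomal subunits, had 262, 289.8 and 258 CPM in the UWOP libraries, against 113, 101 and 133 CPM in the BY4742 libraries (log2 fold change 1.23, SE 0.18, adjusted p = 1.11e-05). NOG1, a GTPase of the large subunit, had 556, 548 and 509 CPM in the UWOP libraries, against 232, 238 and 284 CPM in the BY4742 libraries, and NSR1, nucleolin, had 1030.2, 1054 and 926 CPM in the UWOP libraries, against 473, 473 and 464 CPM in the BY4742 libraries. The strains did not overlap in these genes, with log2 fold changes of 1.10 (SE 0.14) and 1.09 (SE 0.12). ENP1 was at 1.02 (SE 0.09), SPB1, a methyltransferase, at 0.86 (SE 0.17) and NOG2, a GTPase, at 0.85 (SE 0.19). Of 8 RNA polymerase I genes, 5 were higher, with RPA190, the largest subunit, at 546, 502 and 539.6 CPM in the UWOP libraries, against 254, 266 and 265 CPM in the BY4742 libraries (log2 fold change 1.02, SE 0.15, adjusted p = 2.1e-05). The other 4 were weaker, since between 2 and 4 of the 8 genes were higher when 1 library was left out (2 without UWOP library 28 or 36 or BY4742 library 33 or 41, and 3 without BY4742 library 25). Of 138 ribosomal protein genes, 7 were higher and 3 lower, with a median of 0.05, but only 26 of them had whole counts. In a fit of the 6 libraries alone, 22 ribosomal protein genes were higher and 9 lower, beside 1847 and 1812 of all 6400 genes. None of 33 proteasome genes was called by edgeR or DESeq2, 1 had an unadjusted p under 0.05, and a fit of the 6 libraries alone called 2 higher and 3 lower.

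The PAC element GATGAG, added after the values had been seen, was in 19.1% of all windows on either strand, in 23 of the 25 biogenesis genes and in 7 of the 8 RNA polymerase I genes. In the sites of NSR1 (chrVII:807826-807855, minus strand), NOG1 (chrXVI:370858-370887, plus strand) and RPA190 (chrXV:960808-960837, plus strand) it reads on the other strand, as CTCATC, in capitals.
NSR1: ttgcaagggcagCTCATCgcaagaacgaaa
NOG1: cctatgtactacCTCATCtaatacaatata
RPA190: ttcaaatctcatCTCATCtcttaaaaaggt

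**Figure D3:**
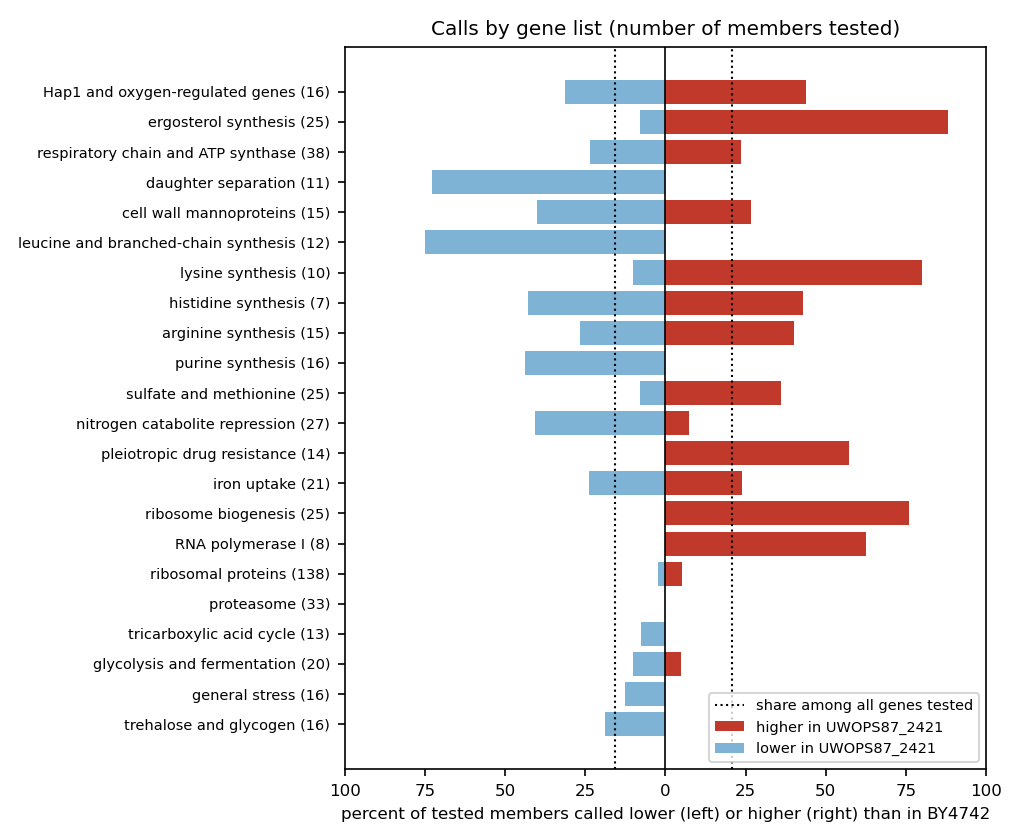
Percent of the tested members of 22 gene lists that were called higher (right, red) or lower (left, blue) in UWOPS87_2421 than in BY4742, with the number tested in brackets and dotted lines at the shares among all genes, 20.8% and 15.8%. Ergosterol synthesis, lysine synthesis and ribosome biogenesis reach far to the right, leucine synthesis and daughter separation far to the left, and no proteasome gene was called.

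Few of the stress and storage genes passed the test, and those that did were lower in UWOP. HSP42, a small heat shock protein, had 45.4, 42.1 and 53.8 CPM in the UWOP libraries, against 302, 383 and 290.0 CPM in the BY4742 libraries, and HSP104, which dissolves protein aggregates, had 243, 251 and 308 CPM in the UWOP libraries, against 1544, 1881 and 1650.0 CPM in the BY4742 libraries. GSY1, a glycogen synthase, had 48.9, 40.6 and 66.9 CPM in the UWOP libraries, against 349, 479 and 352 CPM in the BY4742 libraries. In all of these every UWOP library was below every BY4742 library, with log2 fold changes of −2.79 (SE 0.78), −2.66 (SE 0.61) and −2.91 (SE 0.82) and adjusted p-values of 0.00797, 0.00175 and 0.00821. DESeq2 gave no adjusted p for GSY1. Of 16 general stress genes 2 were lower, and of 16 genes of trehalose and glycogen 3 were lower, beside 15.8% of all genes. Libraries of the other strains, which share the fit, spread widely in them. HSP42 had 154 ± 187 CPM in Y55 and 248 ± 243 CPM in YPS606, and GSY1 had 306 ± 441 CPM in Y55 and 393 ± 403 CPM in YPS606 (SD, n = 3 each). In a fit of the 6 libraries alone, 9 stress genes were lower and 3 higher, and 14 genes of trehalose and glycogen were lower. Of all 6400 genes, that fit called 1812 lower and 1847 higher. In a fit without the Y55 libraries these lists had 3 and 8 lower genes, beside 1288 of all genes. In the fit of all groups, 1 gene of trehalose and glycogen was lower without UWOP library 28, 36 or 44 or without BY4742 library 33.

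Chaperones differed in direction. Of 15 chaperones of the heat shock factor, 4 were higher and 1 was lower, beside 20.8% and 15.8% of all genes. Their median log2 fold change was −0.15. HSP60 and HSP10, which together fold proteins in mitochondria, had 1.21 (SE 0.16) and 1.67 (SE 0.13), with 633, 659 and 619 CPM in the UWOP libraries, against 203, 195 and 203 CPM in the BY4742 libraries for HSP10. MDJ1, a mitochondrial co-chaperone, was higher as well, at 0.90 (SE 0.21). SIS1, a co-chaperone of the cytosol, had 199.8, 182 and 189 CPM in the UWOP libraries, against 481, 495 and 431 CPM in the BY4742 libraries and was lower (log2 fold change −1.30, SE 0.28, adjusted p = 0.000959). In the endoplasmic reticulum, KAR2 was lower at −0.98 (SE 0.23). Of 11 genes of the unfolded protein response there, 3 were lower and none higher.

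Of 21 iron genes 5 were higher and 5 lower, which was near the shares among all genes. FTR1, the permease of high-affinity uptake, had 772, 756 and 645 CPM in the UWOP libraries, against 339, 325 and 289 CPM in the BY4742 libraries (log2 fold change 1.19, SE 0.17, adjusted p = 1.13e-05), while FET3, the oxidase of the same complex, had 537, 511 and 469 CPM in the UWOP libraries, against 1005, 1028 and 895 CPM in the BY4742 libraries (log2 fold change −0.95, SE 0.24, adjusted p = 0.00401). These partners thus differed in direction. FIT2, a mannoprotein that holds siderophores, was at −2.43 (SE 0.43), ENB1, the enterobactin transporter, at −1.47 (SE 0.21), and ARN2, another siderophore transporter, at −1.49 (SE 0.27) on counts that were not whole. AFT1, the activator of the list, was not called.

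In sugar use, ADR1, an activator of glucose-repressed genes, had 6.01, 6.37 and 7.45 CPM in the UWOP libraries, against 24.8, 29.1 and 26.4 CPM in the BY4742 libraries (log2 fold change −2.02, SE 0.27, adjusted p = 5.74e-06), and JEN1, a lactate transporter, was lower as well, at −1.24 (SE 0.16). ADH2, the alcohol dehydrogenase that consumes ethanol and is a known target of Adr1, had 744, 665 and 619 CPM in the UWOP libraries, against 19.1, 18.7 and 22.9 CPM in the BY4742 libraries. Its log2 fold change of 5.06 (SE 0.18) was opposite in sign to that of ADR1, but its counts were whole in 1 of 6 libraries, and it has the near copy ADH1. Of 13 genes in the list 5 were lower and 1 was higher, beside 15.8% and 20.8% of all genes. Of 22 genes of hexose transport and sensing, 4 were higher and 5 lower, beside 20.8% and 15.8% of all genes. Their log2 fold changes ran from −3.25 to 1.30. Among those higher, MIG2, a repressor that acts in glucose repression, was at 1.30 (SE 0.35), and the glucose carrier gene HXT8 at 1.12 (SE 0.16). In glycolysis, GLK1, glucokinase, and CDC19, pyruvate kinase, were lower, at −1.71 (SE 0.45) and −0.47 (SE 0.15), PDC1, pyruvate decarboxylase, was higher, at 0.51 (SE 0.12), and 17 of 20 genes were not called.

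Among membrane lipid genes other than those of sterols, CHO2, which starts the methylation of phosphatidylethanolamine, had 69.9, 78.8 and 106 CPM in the UWOP libraries, against 198, 202 and 223 CPM in the BY4742 libraries (log2 fold change −1.29, SE 0.23, adjusted p = 0.000131), and the inositol transporter ITR1 was at −0.90 (SE 0.20). PEX11, of peroxisome division, was higher with 68.8, 64.1 and 62.5 CPM in the UWOP libraries, against 23.5, 23.3 and 24.8 CPM in the BY4742 libraries (log2 fold change 1.45, SE 0.09, adjusted p = 1.18e-10). Of 16 thiamine genes, 4 were higher and 3 lower, beside 20.8% and 15.8% of all genes, with log2 fold changes from −2.73 to 1.999. The highest was THI7, the thiamine transporter, at 1.999 (SE 0.24), with whole counts in 3 of 6 libraries.

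Of 13 genes of the TOR complexes and their partners 3 were higher and 3 lower, near the 20.8% and 15.8% of all genes. With 1 library left out, 1 to 2 were higher and 2 to 4 lower. The log2 fold changes of the 13 ran from −1.24 to 0.46, with a median of 0.10. SCH9, a kinase downstream of TOR, had 63.6, 57.1 and 60.4 CPM in the UWOP libraries, against 137, 147 and 144 CPM in the BY4742 libraries (log2 fold change −1.24, SE 0.15, adjusted p = 1.02e-06), and TOR1 was lower too, at −0.67 (SE 0.13). IRA2, which turns off Ras, was at −0.80 (SE 0.14), and of the catalytic subunits of protein kinase A, TPK3 was higher, at 0.73 (SE 0.15). GPP2, a glycerol phosphatase of the osmotic response, was at 1.31 (SE 0.20).

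Of 4 genes of alpha cells 2 were lower, of 18 genes induced by pheromone 4 were higher and none lower, and of 10 genes of haploid cells 1 was higher and 2 were lower, beside 20.8% and 15.8% of all genes. SAG1, the alpha agglutinin, had 456, 427 and 452 CPM in the UWOP libraries, against 1122, 1585 and 1243 CPM in the BY4742 libraries (log2 fold change −1.57, SE 0.22, adjusted p = 1.18e-05), and MF(ALPHA)2, a pheromone gene, was lower at −1.10 (SE 0.26). PRM10, a gene induced by pheromone, had 61.1, 53.7 and 61.5 CPM in the UWOP libraries, against 12.4, 14.4 and 11.9 CPM in the BY4742 libraries (log2 fold change 2.18, SE 0.24, adjusted p = 2.78e-07), and the kinase gene FUS3 was higher at 0.85 (SE 0.10). IME1, the switch to meiosis that is known to be off in haploids, was below 1 CPM in each UWOP library, and had 7.49, 5.88 and 7.02 CPM in the BY4742 libraries.

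FLO11, the flocculin of filamentous and invasive growth, had 84.7, 79.6 and 83.1 CPM in the UWOP libraries, against 22.9, 23.9 and 25.7 CPM in the BY4742 libraries (log2 fold change 1.77, SE 0.28, adjusted p = 4.04e-05). Both strains were far below YPS606, where it had 4952 ± 2148 CPM (SD, n = 3). FLO8, an activator of FLO11 that is known to be defective in S288C, was not called. Of 14 genes at which S288C is known for unusual alleles, SAL1, a mitochondrial carrier, and ERC1 were higher, at 1.07 (SE 0.11) and 0.70 (SE 0.10), while HAP1, AMN1, IRA2 and BUL2 were lower, with BUL2 at −0.73 (SE 0.11). Over all genes, 20.8% were higher and 15.8% lower.

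A set of genes with RNA in BY4742 had almost none in UWOP. At most 3 counts in each UWOP library and a mean of at least 1 CPM in BY4742 were found for 76 genes, of which 17 had whole counts, 62 have a place on a chromosome in R64 and 40 of those lie within 30 kb of a chromosome end. Of the 76, 26 had at least 1 CPM in YPS606 and 2 in Y55. The most abundant with whole counts was BDS1, a bacterially derived sulfatase, with 0 counts in each UWOP library against 49.3, 45.2 and 45.2 CPM in BY4742, which made it at least 277-fold lower. ARR1, the activator of arsenic resistance, had 0, 1 and 0 counts in UWOP against 41.1, 43.4 and 42.5 CPM in BY4742, at least 252-fold lower. REE1, named for regulation of enolase, was at least 177-fold lower, RDS1, a zinc cluster factor, at least 92.5-fold and ADH7, an alcohol dehydrogenase, at least 68.8-fold, each with 0 counts in UWOP. All bounds are against 3 counts per library.

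Several of these genes were neighbours. ARR1, ARR2 and ARR3 lie beside SGE1 in a block at chrXVI:934034-941136, where all 4 genes were at the floor. ADH7 and RDS1 lie with PAU3 at chrIII:307801-313456, close to GIT1, YCR099C and EMA35 at chrIII:297049-302221. BDS1 and YOL163W are at chrXV:6175-10106, and REE1 and YJL218W at chrX:21973-23729. On chromosome XII, the cluster of the asparaginase genes ASP3-1 to ASP3-4 beside ribosomal RNA repeats (chrXII:469317-489341) held 14 genes at the floor, 8 of which had at least 1 CPM in BY4742, with 150.2, 161 and 149 CPM for each of the near-identical ASP3 copies in BY4742. YPS606 lacked RNA of the ASP3 genes as well, with 0 CPM, but had 32.5 CPM of BDS1 and 32.0 CPM of ARR1. Since reads were matched to S288C transcripts, a missing gene, a silent gene and a diverged sequence cannot be told apart, and genes that only UWOP has were not measured.

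In the opposite direction, 13 genes were at the floor in BY4742 with at least 1 CPM in UWOP, and LYS2, LEU2 and URA3 were the only 3 of them with whole counts.

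Genes near chromosome ends differed most often. Within 30 kb of an end, 58.8% of 371 genes were called and 45.6% were called with a change of at least 2-fold, against 36.4% and 10.8% of the 5493 genes farther in. Limited to genes with whole counts, the shares with at least 2-fold were 33.8% and 9.61%. In the last 10 kb, 54.96% of 111 genes were lower and 12.6% higher by at least 2-fold. The share of 2-fold changes in either direction was 67.6% there, 46.7% from 10 to 20 kb, 26.8% from 20 to 30 kb and between 9.49% and 12.8% in each bin beyond. The seripauperins, a family of small wall proteins encoded at these ends, were part of this, with 11 of 21 lower and 3 higher. Over all genes, 15.8% were lower and 20.8% higher. Only 4 of the seripauperins had whole counts. Of those 4, PAU5 was lower at −1.17 (SE 0.24), PAU17 was higher at 0.81 (SE 0.20), and PAU7 and PAU23 were not called.

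**Figure D4:**
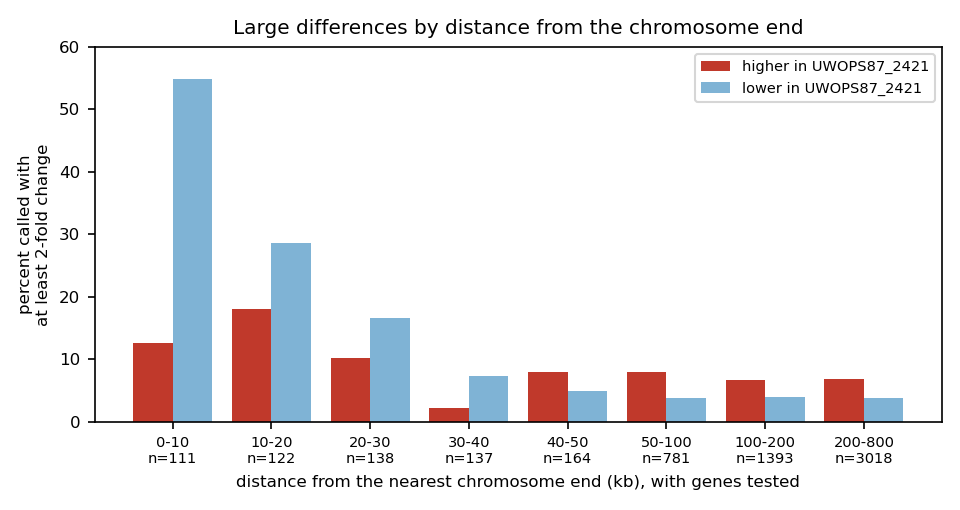
Percent of genes called with a change of at least 2-fold, by distance from the nearest chromosome end in kb, for genes higher (red) and lower (blue) in UWOPS87_2421, with the number of genes tested under each bin. Within 10 kb, 54.96% were lower and 12.6% higher, and from 30 kb on no bin has more than 7.94% higher or 7.30% lower genes.

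No whole chromosome was shifted. The median log2 fold change per chromosome was between −0.03 and 0.11, and the highest was that of chromosome XIV, where 108 genes were higher and 52 lower.

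The same genes were compared directly between UWOP and YPS606, where 1699 genes were called, 26.5% of those tested, 853 higher and 846 lower in UWOP. Of the 28 ranked genes, 11 differed between UWOP and YPS606 and none between UWOP and Y55. BNA1 was lower in UWOP than in YPS606 by a log2 fold change of −3.34 (SE 0.23, adjusted p = 9.18e-10), since YPS606 had 20.7 ± 4.65 CPM (SD, n = 3). CYC1 was higher in UWOP than in YPS606 (0.47, SE 0.16, adjusted p = 0.0397), a small difference beside that from BY4742. CIT2 was higher (1.92, SE 0.52) and FRE4 lower (−1.55, SE 0.38) in UWOP than in YPS606. HMX1, QDR2, CTS1 and ERG28 were not called between UWOP and YPS606, with log2 differences of −0.09, 0.16, 0.50 and 0.13. By list, none of the respiratory genes was higher in UWOP than in YPS606 and 22 of 38 were lower, and of the trehalose and glycogen genes none was higher and 12 of 16 were lower. Both comparisons share the UWOP libraries.

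**Figure D5:**
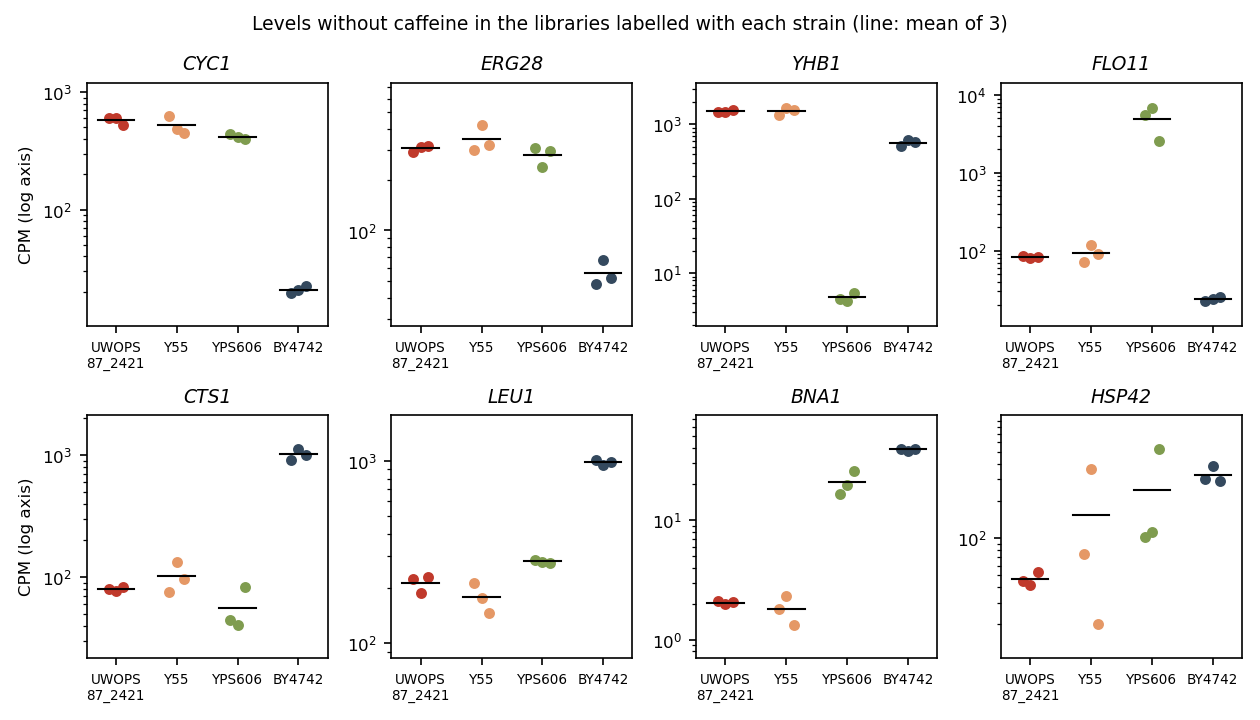
CPM without caffeine of 8 genes in each library labelled UWOPS87_2421, Y55, YPS606 and BY4742, on log axes, with a line at the mean of 3. CYC1 and ERG28 are high and CTS1 and LEU1 low in all strains but BY4742, YHB1 and FLO11 stand apart in YPS606 at 4.74 and 4952 CPM, BNA1 is at 2.04 CPM in UWOPS87_2421 and 20.7 CPM in YPS606, and HSP42 spreads widely among the Y55 and YPS606 libraries.

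Some differences between the strains themselves differed with 20 mM caffeine. By the interaction term, 1418 genes (22.2% of those tested) had a strain difference in caffeine unlike that without it. Of the 28 ranked genes, 15 were among them, 9 of the highest and 6 of the lowest. These genes were ranked on the difference without caffeine, which the term subtracts, so their choice favours a change of opposite sign. The 15 of 28 can therefore not be set against the 22.2%.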

How the data were processed

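In all, 24 RNA libraries were made with a stranded mRNA kit and sequenced, and only the libraries without caffeine of UWOP and BY4742 are compared in depth here. Per the labels and the methods, the authors trimmed the reads with Trimmomatic 0.36 and quantified them with kallisto 0.44.0 against R64 transcripts, and the deposited files hold estimated counts for 6713 transcripts in each library, which were not normalised. No strand option is stated for the quantification. The files' own TPM values were not used.

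The estimated counts were rounded, and 6400 genes passed the filter on low counts of edgeR 4.0.16 (R 4.3.3). One quasi-likelihood model over all 24 libraries with 8 groups and TMM scaling gave log2 fold changes, their SE and p-values adjusted by Benjamini-Hochberg over all genes tested, with an adjusted p under 0.05 as the threshold. A count was taken as whole within 0.01. The floor was 3 counts per library. A bound is the mean CPM of the strain with RNA over the CPM of 3 counts in the other, and carries no error. Each SE came from the quasi-likelihood fit, so it includes the spread between libraries. An exact permutation test of 3 libraries against 3 could not go below p = 0.1 and was not used. DESeq2 1.42.0, RLE size factors, no filter, length offsets, other sets of libraries, leaving out each library and a block added later were the alternatives. Promoter windows and gene positions came from RefSeq R64, where 6026 identifiers matched.

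Named were the 14 highest and 14 lowest fold changes among called genes averaging 10 CPM or more, with whole counts above the floor in all 6 libraries and no overlap, the genes at the floor in 1 strain with at least 10 CPM in the other, and, of 56 gene lists, up to 6 called members with the largest change, with regulators. Other members, named for their place in a pathway, a promoter site, an opposite direction or a lack of change, were chosen after their values were seen. A few list members are not reported or plotted here, but are counted in their lists. The members and lists were chosen with earlier results of these data known.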

Additional observations from a re-analysis of the deposited data

Results flagged for a closer look

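Of the 28 ranked genes, 15 had a difference between UWOP and BY4742 that was not the same in 20 mM caffeine, by the interaction term of edgeR over 4 groups of 3 libraries each. Each value is a log2 fold change of UWOP over BY4742, and the change is the difference in caffeine minus that without it. The genes were ranked on the difference without caffeine, so their choice favours a change of opposite sign, and a smaller difference in caffeine.

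Among the genes that were higher in UWOP without caffeine, 3 had the opposite sign in caffeine. DPI8 showed a difference of 3.31 without caffeine and −1.02 in caffeine, where the libraries averaged 164 CPM in UWOP and 333 CPM in BY4742, so that the change was −4.33 (SE 0.76, adjusted p = 0.000625). In CIT2 there was a difference of 2.89 without caffeine and −1.49 in caffeine, where the libraries averaged 842 CPM in UWOP and 2371 CPM in BY4742, so that the change was −4.38 (SE 0.74, adjusted p = 0.000422). PUT4 showed a difference of 2.62 without caffeine and −1.47 in caffeine, where the libraries averaged 7.18 CPM in UWOP and 19.8 CPM in BY4742, so that the change was −4.09 (SE 0.36, adjusted p = 3.27e-07). The genes DPI8, CIT2 and PUT4 were thus the ones whose order between the strains turned. CYC1 had a difference of 4.81 without caffeine and 4.04 in caffeine, where the libraries averaged 229 CPM in UWOP and 13.98 CPM in BY4742, so that the change was −0.77 (SE 0.24, adjusted p = 0.0262). For HMX1 there was a difference of 3.80 without caffeine and 1.40 in caffeine, where the libraries averaged 164 CPM in UWOP and 62.4 CPM in BY4742, so that the change was −2.41 (SE 0.36, adjusted p = 0.000148). YAP6 had a difference of 3.06 without caffeine and 1.21 in caffeine, where the libraries averaged 32.0 CPM in UWOP and 13.96 CPM in BY4742, so that the change was −1.85 (SE 0.52, adjusted p = 0.0163). FRE4 had a difference of 2.87 without caffeine and 1.23 in caffeine, where the libraries averaged 40.7 CPM in UWOP and 17.3 CPM in BY4742, so that the change was −1.63 (SE 0.55, adjusted p = 0.0381). YJL107C had a difference of 2.56 without caffeine and 1.39 in caffeine, where the libraries averaged 43.6 CPM in UWOP and 16.7 CPM in BY4742, so that the change was −1.17 (SE 0.38, adjusted p = 0.0321). MAM33 had a difference of 2.45 without caffeine and 3.21 in caffeine, where the libraries averaged 309 CPM in UWOP and 33.4 CPM in BY4742, so that the change was 0.77 (SE 0.23, adjusted p = 0.0223). In these 6 genes UWOP was the higher strain in both media, and the difference was smaller in caffeine for all but MAM33.

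Among the genes that were lower in UWOP without caffeine, HO had the opposite sign in caffeine. HO had a difference of −2.53 without caffeine and 0.47 in caffeine, where the libraries averaged 10.2 CPM in UWOP and 7.39 CPM in BY4742, so that the change was 3.003 (SE 0.22, adjusted p = 4.26e-08). In caffeine its libraries overlapped, from 9.16 to 10.9 CPM in UWOP and from 6.03 to 9.21 CPM in BY4742. The difference within caffeine was not tested on its own. The others were less far apart in caffeine than without it, with UWOP the lower strain in both. DSE2 had a difference of −4.08 without caffeine and −1.87 in caffeine, where the libraries averaged 69.5 CPM in UWOP and 254 CPM in BY4742, so that the change was 2.21 (SE 0.43, adjusted p = 0.0014). QDR2 showed a difference of −4.08 without caffeine and −1.57 in caffeine, where the libraries averaged 21.4 CPM in UWOP and 63.5 CPM in BY4742, so that the change was 2.51 (SE 0.25, adjusted p = 2.23e-06). DSE1 had a difference of −3.66 without caffeine and −1.74 in caffeine, where the libraries averaged 25.2 CPM in UWOP and 84.3 CPM in BY4742, so that the change was 1.92 (SE 0.48, adjusted p = 0.00839). CTS1 showed a difference of −3.66 without caffeine and −1.55 in caffeine, where the libraries averaged 276 CPM in UWOP and 811 CPM in BY4742, so that the change was 2.11 (SE 0.35, adjusted p = 0.000401). SCW11 had a difference of −2.73 without caffeine and −0.97 in caffeine, where the libraries averaged 62.1 CPM in UWOP and 122 CPM in BY4742, so that the change was 1.76 (SE 0.26, adjusted p = 0.000126). Of these, 4 were genes of daughter separation.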

How the results depend on the processing

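Of the 205 named genes 189 were called, and none of these was called in the opposite direction under any alternative that gave it an adjusted p, which DESeq2 did not for GSY1 and URA3. Of the 189, 9 lost the call under at least 1 alternative (ROX1, PDR1, GCN4, HIS2, HIS5, HIS6, QCR6, R0020C and R0040C). For UWOP against BY4742, 2343 genes were called, and the count was 3659 in a fit of the 6 libraries alone (1812 of them lower) and 844 with at least 2-fold (471 higher and 373 lower). With 1 library left out it was between 1889 and 2039, with 1029 to 1124 higher and 855 to 917 lower. RLE size factors called 2340 genes (1161 higher) and DESeq2 2461 (1223 higher), and the median log2 fold change was −0.02 under both. Against YPS606, 1699 genes were called, 975 at an adjusted p under 0.01, 516 with at least 2-fold and between 1139 and 1628 with 1 library left out. Against Y55 the count was 4 under every alternative, leaving out libraries included. The interaction was called in 1418 genes, in 640 at an adjusted p under 0.01, in 435 with at least 2-fold and in between 974 and 1945 with 1 library left out. No library number is shared between groups, but the numbers run in 3 sets of 8 with 1 library of every group in each. A replicate block by these sets, chosen after seeing the data, called 2310 genes (1321 higher and 989 lower) against BY4742, 1638 against YPS606, 4 against Y55 and 1366 for the interaction, and GCN4 was the only named gene whose call it changed (adjusted p = 0.0627). The deviations of UWOP and BY4742 libraries of the same set from their strain means correlated at −0.03, 0.05 and 0.07 over 6400 genes, so the sets were not taken as pairs. The share of genes called near chromosome ends was 67.0% within 20 kb and 49.9% within 50 kb, beside 58.8% within 30 kb, and no chromosome median of genes with whole counts went beyond 0.11. Genes with few reads limit the depth, since a gene at the floor of 3 counts cannot be told from an absent one.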
